A study of Mus musculus with 18 samples.

Results

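Macrophages and monocytes are carried along when adipocytes are floated out of a tissue, and the genes that mark them were followed here in adipocyte preparations from 2 depots of ageing mice. A list of 36 genes was drawn up, of which 35 were named by a probe set of their own among the 19938 genes that the arrays name one by one. The remaining gene, Slc11a1, was not analysed here. Of the 35 genes, 14 were taken as resident-type, 8 as inflammatory-type, 2 as lipid-associated and 11 as shared by most macrophages. The grouping comes from what each gene is known for, and the genes were chosen with earlier results of these data known.

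RNA was hybridised to 18 Affymetrix Mouse Gene ST arrays, 3 for each of 6 groups. The groups were bone marrow (BM) adipocytes and epididymal white adipocytes, which the labels call peripheral, from male C57BL/6J mice on standard chow at 6, 14 and 18 months of age. No group carried a transgene or received a treatment. Marrow was flushed from femurs and tibias, red cells were lysed and the floating cells were collected, whereas epididymal fat was digested with collagenase before flotation. The cells were not sorted, and each array holds 1 of 3 RNA pools that the labels trace to 6 to 10 animals per group. The spread between arrays is therefore the spread between pools, and the sources used here do not say whether the pools of a group were made of separate animals. Both depots were taken from the same mice, but no source ties a BM pool to an epididymal pool, so the depots were fitted as separate groups.

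Macrophages engulf dying cells, debris and microbes, and many tissues hold a resident population that is kept in place by signalling through the CSF1 receptor. Resident cells of adipose tissue and marrow typically carry scavenger, lectin and complement receptors and make the C1q complement protein. Cells that have recently come from blood monocytes carry more of the lipopolysaccharide co-receptor CD14, Fc receptors and costimulatory molecules, and in obese fat a lipid-associated form that expresses Trem2 and Gpnmb is found around dying adipocytes.

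The transcription factor PU.1, encoded by Spi1, is required for the macrophage lineage, and the promoters of these genes were searched for its core letters. RefSeq promoters (assembly GRCm38.p6, 250 bases before to 50 bases after the annotated start) were matched for 24 of the 35 genes. The letters GAGGAAG, or the reverse complement CTTCCTC, stood in a promoter of 8 of the 24 genes and of 15.4% of 27025 genes with a promoter of this length. One promoter is shown for 4 of them, a complement gene, a scavenger receptor, an Fc receptor and a lipid-associated gene whose signals are described further on, with the match in capitals.
C1qc promoter, chr4:136892865-136893164, minus strand: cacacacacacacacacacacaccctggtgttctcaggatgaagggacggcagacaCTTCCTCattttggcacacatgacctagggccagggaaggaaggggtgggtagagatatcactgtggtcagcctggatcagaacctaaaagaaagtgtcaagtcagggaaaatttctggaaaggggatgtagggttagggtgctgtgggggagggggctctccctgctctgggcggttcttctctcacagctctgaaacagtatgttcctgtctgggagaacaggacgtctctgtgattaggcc
Mrc1 promoter, chr2:14229164-14229463, plus strand: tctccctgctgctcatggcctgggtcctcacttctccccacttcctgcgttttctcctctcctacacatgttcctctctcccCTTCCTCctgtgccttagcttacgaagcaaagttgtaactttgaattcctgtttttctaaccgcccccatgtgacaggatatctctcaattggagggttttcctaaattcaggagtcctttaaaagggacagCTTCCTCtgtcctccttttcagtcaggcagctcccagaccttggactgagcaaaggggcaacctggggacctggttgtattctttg
Fcgr4 promoter, chr1:171018676-171018975, plus strand: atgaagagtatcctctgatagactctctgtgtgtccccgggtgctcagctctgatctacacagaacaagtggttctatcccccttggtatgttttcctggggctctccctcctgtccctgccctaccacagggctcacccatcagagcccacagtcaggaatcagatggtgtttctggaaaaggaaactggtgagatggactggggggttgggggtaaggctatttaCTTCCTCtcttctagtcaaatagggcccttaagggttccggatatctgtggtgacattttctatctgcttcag
Trem2 promoter, chr17:48346151-48346450, plus strand: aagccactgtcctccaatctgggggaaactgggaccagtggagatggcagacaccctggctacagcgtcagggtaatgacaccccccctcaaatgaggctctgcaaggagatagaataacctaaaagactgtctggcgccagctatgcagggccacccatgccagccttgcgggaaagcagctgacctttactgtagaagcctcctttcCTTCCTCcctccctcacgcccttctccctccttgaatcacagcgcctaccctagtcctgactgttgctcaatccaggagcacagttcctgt
Each is written 5′ to 3′ on the gene's own strand, and every match shown reads CTTCCTC on that strand. Counted to the first capital, the match lay at -194 from the annotated start in C1qc, at -23 in Fcgr4 and at -41 in Trem2. Mrc1 held a pair of matches. The MAF recognition core TGCTGAC, or GTCAGCA on the other strand, was found for 2 of the 24 genes and 5.28% of all genes, and the E-box CACGTG, which reads the same on both strands, for 0 of 24 and 8.09%. A match is a run of letters and not a measured binding site.

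All values are log2 array signals as deposited, differences are log2 fold changes, and a change was called at an adjusted p under 0.05 in limma with Benjamini-Hochberg adjustment over 23410 probe sets. Adipoq, which encodes adiponectin, averaged 12.56 ± 0.042 (SD, n = 3) in the epididymal 6-month preparations and 8.08 ± 0.88 in those of BM. The list of adipocyte markers had array means of 11.91 to 12.43 in epididymal preparations and of 6.16 to 6.92 in BM, where neutrophil markers lay between 11.42 and 12.06. The BM preparations thus carried the label adipocyte with adipocyte markers far under those of epididymal cells and leukocyte markers far above. Olfactory receptor probe sets, silent in these tissues, gave a background limit of 4.84 to 5.22 per array (their 95th percentile), and 23 of the 35 genes were above it on all 18 arrays and none was under it on all. In bulk RNA of this kind, fewer macrophages and less RNA of these genes per macrophage cannot be told apart.

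**Figure D1:**
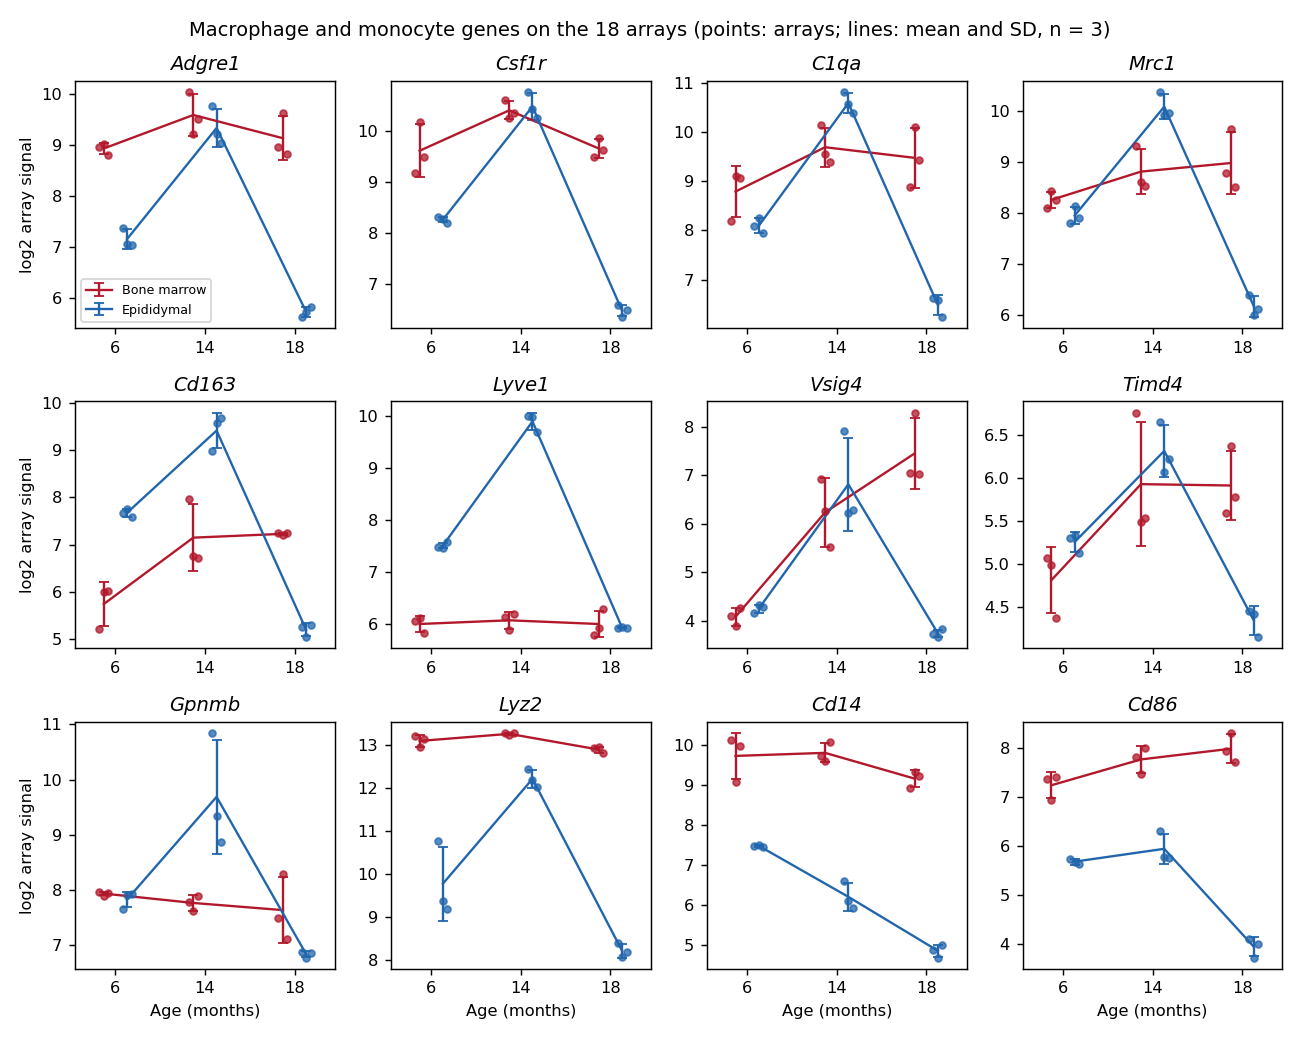
Log2 array signal of 12 macrophage and monocyte genes on the 18 arrays, by age in months (the ages are evenly spaced on the axis, not to scale), BM in red and epididymal in blue. Points are arrays and lines join group means with SD (n = 3). Epididymal Adgre1, Csf1r, C1qa, Mrc1, Cd163, Lyve1, Vsig4, Timd4, Gpnmb, Lyz2 and Cd86 are highest at 14 and lowest at 18 months on every array, while epididymal Cd14 is highest at 6 months. Epididymal Vsig4 is under the background limit on all arrays of 6 and 18 months.

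In epididymal preparations the macrophage genes peaked at 14 months. Compared to 6 months, 28 of the 35 genes rose and 1 fell (Cd14), where 17.7% of all probe sets changed, 10.2% upward and 7.51% downward. The median change was 1.86 for these genes and -0.04 over all probe sets. Resident-type genes rose in 12 of 14 cases, shared genes in 10 of 11, both lipid-associated genes rose, and of 8 inflammatory-type genes 4 rose and 1 fell. At 18 months the signal was far lower than at 14 months, with 33 of 35 genes lower and 0 higher where 24.1% of probe sets changed (12.5% lower and 11.7% higher). Against 6 months 23 genes were lower and 0 higher at 18 months, where 16.2% changed (8.01% lower and 8.22% higher). The 14-month arrays enter both the rise and the later fall, and the 6-month arrays enter both comparisons with 6 months, so these counts are not independent of one another. The arrays of 14 and 6 months did not overlap for 32 of the 35 genes (35.9% of all probe sets), those of 18 and 6 months for 29 (41.7%) and those of 18 and 14 months for 34 (46.2%). For 27 of the 35 genes all 3 arrays of 14 months lay above all of 6 months, and those above all of 18 months, an order without overlap that 4.11% of all probe sets had. For Vsig4, Clec4n, Ms4a7 and Aif1 among them, all 6-month and 18-month arrays were under the background limit. Their order of 6 above 18 months thus lay within background.

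The pan-macrophage genes followed this course. Adgre1 encodes the F4/80 antigen, the classical surface marker of mouse macrophages. Its epididymal signal was 7.38, 7.05 and 7.04 at 6 months, 9.76, 9.20 and 9.03 at 14 months and 5.63, 5.73 and 5.82 at 18 months. No array of one age overlapped another age. Adgre1 rose by 2.18 (SE 0.22, adjusted p = 7.77e-07), which is 4.52-fold, and at 18 months it was 2.68-fold under the 6-month level (adjusted p = 0.000201). Csf1r, the receptor on which macrophage survival depends, read 8.31, 8.28 and 8.21 at 6 months, 10.75, 10.42 and 10.24 at 14 months and 6.60, 6.37 and 6.51 at 18 months. These arrays were also fully separated by age, with a 4.61-fold rise to 14 months (adjusted p = 1.43e-07) and a 15.8-fold drop from 14 to 18 months (adjusted p = 4.04e-11). Ms4a7, a tetraspanning surface protein of mature macrophages, was at 4.54 ± 0.19 at 6 months, 5.62 ± 0.65 at 14 months and 3.89 ± 0.10 at 18 months. Its 6-month and 18-month arrays were all under the background limit, and 2 of 3 at 14 months were above it. Its rise was at least 1.43-fold, and the fitted rise was 1.09 (SE 0.33, adjusted p = 0.0286).

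Complement C1q is built from 3 chains whose genes are C1qa, C1qb and C1qc, and macrophages are its main source. C1qa was at 8.09, 8.25 and 7.95 at 6 months, 10.81, 10.56 and 10.39 at 14 months and 6.63, 6.58 and 6.25 at 18 months. C1qb was at 7.60, 7.80 and 7.53 at 6 months, 10.68, 10.27 and 10.01 at 14 months and 6.22, 6.29 and 6.32 at 18 months. C1qc read 8.08, 8.15 and 8.19 at 6 months, 11.10, 10.76 and 10.65 at 14 months and 7.18, 6.68 and 6.97 at 18 months. For each chain the 14-month arrays stood above the 6-month arrays and the 18-month arrays beneath both. The rises were 2.49 (SE 0.27, adjusted p = 2.14e-06) for C1qa, 2.67 for C1qb and 2.70 for C1qc, between 5.63-fold and 6.48-fold. From 14 to 18 months C1qa dropped 17.2-fold (adjusted p = 2.47e-09), and all 3 chains ended under their 6-month level, with C1qc at -1.20 (SE 0.18, adjusted p = 0.000162).

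All 5 scavenger and uptake receptors of the resident type rose and fell in epididymal cells. Lyve1 encodes a hyaluronan receptor of perivascular macrophages that lymphatic endothelium also carries. Its arrays were 7.49, 7.47 and 7.57 at 6 months, 10.01, 9.98 and 9.70 at 14 months and 5.93, 5.94 and 5.92 at 18 months. The groups did not overlap, the 14-month signal was 5.24-fold above that at 6 months (adjusted p = 5.93e-10), and the later fall was 15.7-fold (adjusted p = 3.7e-13). The lymphatic endothelial genes Prox1 and Flt4 differed between 14 and 6 months by 0.40 (adjusted p = 0.231) and 0.84 (adjusted p = 0.017). Cd163, the haemoglobin scavenger receptor, stood at 7.66, 7.76 and 7.59 at 6 months, 8.98, 9.57 and 9.68 at 14 months and 5.27, 5.05 and 5.29 at 18 months. It was lowest at 18 months by a wide margin, 18.5-fold under 14 months (adjusted p = 1.42e-09). Mrc1, the mannose receptor CD206, was at 7.81, 8.14 and 7.90 at 6 months, 10.38, 9.93 and 9.97 at 14 months and 6.39, 5.99 and 6.11 at 18 months. Its rise was 4.41-fold and its 18-month signal lay 3.45-fold under that at 6 months (adjusted p = 6.05e-05).

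Folr2, a folate receptor of resident macrophages, averaged 6.85 ± 0.24 at 6 months, 9.51 ± 0.14 at 14 months and 5.90 ± 0.09 at 18 months (SD, n = 3), a 6.32-fold rise. Stab1, the scavenger receptor stabilin-1 that sinusoidal endothelium shares, averaged 7.42 ± 0.09 at 6 months, 9.78 ± 0.29 at 14 months and 6.47 ± 0.10 at 18 months, and rose by 2.36 (SE 0.18, adjusted p = 2.46e-08). The shared scavenger receptor Msr1, above the background limit on 2 of 3 arrays at 6 and at 18 months, rose by 1.43 and at 18 months was -0.37 from its 6-month level, which was not called (adjusted p = 0.365). Marco, another class A scavenger receptor, had no called change, with epididymal arrays of 5.49, 5.26 and 5.65 at 6 months, 5.52, 5.38 and 5.32 at 14 months and 5.20, 5.27 and 5.45 at 18 months that overlapped at all ages.

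Receptors for dying and opsonised cells were less uniform. Vsig4, the complement receptor of the immunoglobulin superfamily found on resident macrophages, was under the background limit on all arrays of 6 months (4.16, 4.32 and 4.28) and of 18 months (3.73, 3.67 and 3.82). At 14 months it read 7.92, 6.23 and 6.30, above that limit on all 3 arrays and at least 3.26-fold above 6 months (adjusted p = 0.000104 for the fitted difference). Timd4 encodes a phosphatidylserine receptor of long-lived resident macrophages, and its arrays were 5.30, 5.34 and 5.13 at 6 months, 6.65, 6.07 and 6.21 at 14 months and 4.45, 4.42 and 4.15 at 18 months. The ages did not overlap, the rise was 1.06 (SE 0.28, adjusted p = 0.0115) over 6-month arrays of which 2 of 3 passed the background limit, and the 18-month arrays were under the background limit. Mertk, a receptor tyrosine kinase for apoptotic cells, was at 8.79, 9.09 and 8.99 at 6 months, 8.69, 8.61 and 8.86 at 14 months and 8.31, 8.36 and 8.33 at 18 months and showed no peak. Its 14-month value differed from 6 months by -0.24 (SE 0.19, adjusted p = 0.462), and only the decline to 18 months was called at -0.63 (SE 0.19, adjusted p = 0.0308).

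Among the lectin receptors, Clec10a and Mgl2 encode galactose-type lectins of alternatively activated macrophages. Clec10a averaged 6.51 ± 0.15 at 6 months, 8.96 ± 0.22 at 14 months and 5.54 ± 0.063 at 18 months and rose 5.45-fold, and Mgl2 averaged 6.41 ± 0.11 at 6 months, 8.33 ± 0.36 at 14 months and 5.39 ± 0.25 at 18 months and rose 3.78-fold. Siglec1, the sialoadhesin CD169, differed by 0.46 (SE 0.24, adjusted p = 0.216) at 14 months and fell from 14 to 18 months (-1.18). Clec4n, which encodes the fungal receptor dectin-2 of inflammatory monocytes, was under the background limit at 6 and 18 months, and its 14-month signal, at least 1.25-fold above 6 months, was not called (adjusted p = 0.127).

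The 4 lysosomal and granule genes, Lyz2, Cd68, Ctss and Gpnmb, rose at 14 months, as did the intracellular marker Mpeg1. Lyz2, the lysozyme of myeloid cells, was at 10.76, 9.38 and 9.17 at 6 months, 12.44, 12.19 and 12.02 at 14 months and 8.38, 8.07 and 8.18 at 18 months. One 6-month array stood well above the other two, but the ages did not overlap and the rise was 5.44-fold (adjusted p = 1.73e-06). Cd68, a lysosomal membrane protein used to count macrophages in sections, read 8.35, 8.32 and 8.06 at 6 months, 11.11, 10.56 and 10.27 at 14 months and 7.61, 7.85 and 7.68 at 18 months. Its rise was 5.29-fold, and although its 18-month arrays lay under all 6-month arrays, that difference of -0.53 was not called (adjusted p = 0.0706). Ctss, the cathepsin of antigen processing, averaged 9.52 ± 0.17 at 6 months, 11.36 ± 0.42 at 14 months and 8.31 ± 0.079 at 18 months, and the pore-forming Mpeg1 7.32 ± 0.38 at 6 months, 9.24 ± 0.61 at 14 months and 5.97 ± 0.30 at 18 months, both called at each step.

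Gpnmb and Trem2 mark the lipid-associated macrophages of expanded fat. Gpnmb was at 7.66, 7.90 and 7.92 at 6 months, 10.84, 9.34 and 8.88 at 14 months and 6.88, 6.78 and 6.86 at 18 months. All 14-month arrays were above the others, though they spread widely, and the rise was 1.86 (SE 0.34, adjusted p = 0.000593), or 3.63-fold. Trem2 read 6.25, 6.44 and 6.43 at 6 months, 7.80, 7.24 and 6.87 at 14 months and 6.28, 6.20 and 6.31 at 18 months. Its rise was 0.93, or 1.91-fold (adjusted p = 0.00231), and the 6-month and 18-month arrays overlapped, with a difference of -0.11 that was not called (adjusted p = 0.762). Tyrobp, the DAP12 adaptor through which TREM2 signals, rose by 2.01, and Fcer1g, the common Fc receptor gamma chain, by 2.30.

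Inflammatory-type genes split at 14 months. The activating Fc receptor genes Fcgr1 and Fcgr3 rose by 1.05 and 1.80, whereas Fcgr4 differed by 0.58 (SE 0.32, adjusted p = 0.247). Itgax, the integrin CD11c of dendritic cells and of inflammatory fat macrophages, was at 5.62, 5.78 and 5.75 at 6 months, 7.78, 6.62 and 6.30 at 14 months and 5.49, 5.32 and 5.45 at 18 months and rose by 1.18 (SE 0.30, adjusted p = 0.00905). Cd86, a costimulatory ligand for T cells, was at 5.74, 5.68 and 5.62 at 6 months, 6.30, 5.77 and 5.75 at 14 months and 4.10, 3.72 and 3.998 at 18 months. Its 14-month arrays lay just above those of 6 months without a call (0.26, adjusted p = 0.393), and its 18-month arrays were all under the background limit, at least 1.65-fold under 6 months. Cd14 went the other way. Its signal was 7.49, 7.51 and 7.47 at 6 months, 6.60, 6.12 and 5.92 at 14 months and 4.89, 4.70 and 5.005 at 18 months, with no overlap between ages, a 2.42-fold fall to 14 months (adjusted p = 0.000375) and a further fall to 18 months (adjusted p = 2.43e-07 against 6 months), when 2 of 3 arrays were above the background limit.

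Timd4, Ms4a7, Aif1 and Itgax no longer passed at 14 months without epididymal 14-month replicate 1, which left 25 genes called (12.6% of all probe sets). At 18 against 6 months 18 genes were called with each array centred on its median (20.9% of all probe sets). Tyrobp, Fcer1g and Fcgr3 no longer passed there without epididymal 6-month replicate 1. The 18-month falls of Mertk, Timd4 and Siglec1 each lost the call without at least 1 epididymal array.

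**Figure D2:**
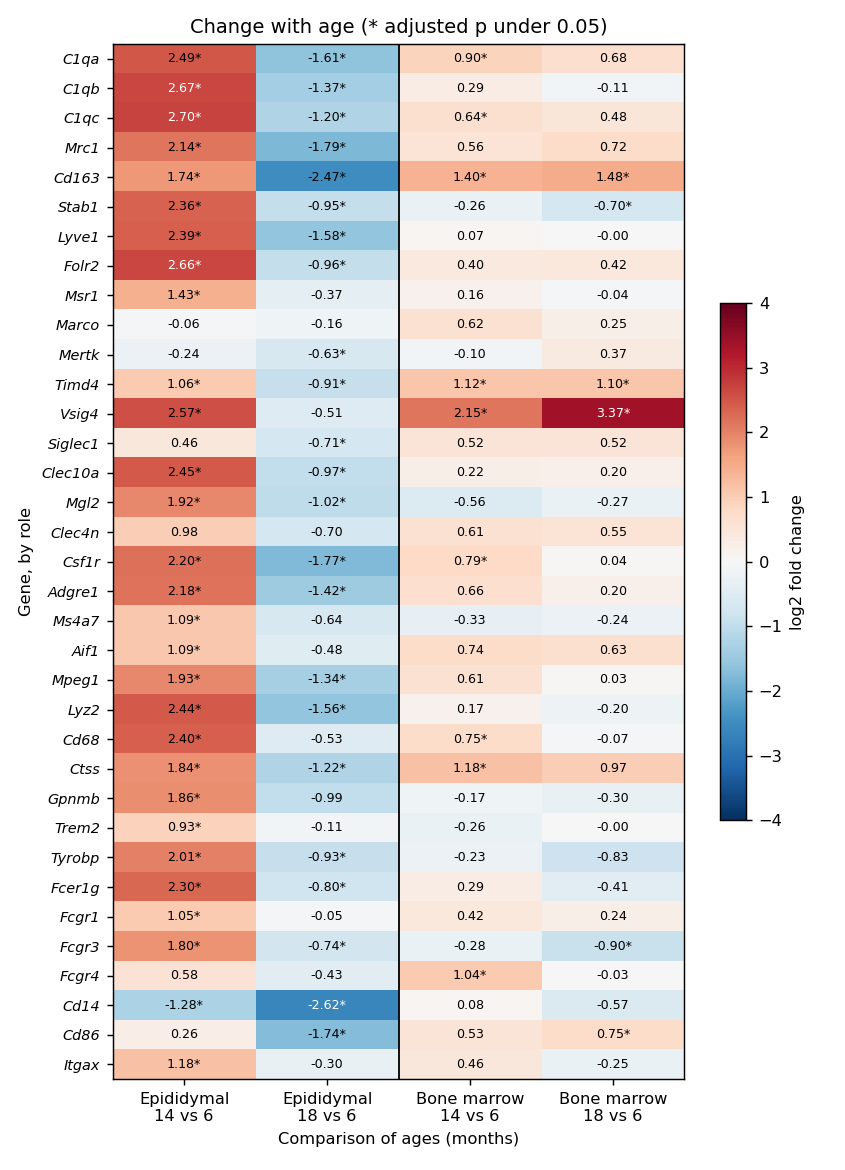
Heat map of the log2 change with age of the 35 genes (rows) in epididymal and BM preparations at 14 and at 18 months, each against 6 months (columns), with an asterisk where the adjusted p was under 0.05. Epididymal cells show 28 rises and 1 fall at 14 months and 23 falls at 18 months, and BM shows 9 rises at 14 months and 4 rises with 2 falls at 18 months.

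In BM fewer of these genes changed with age than in epididymal preparations. At 14 months 9 of the 35 rose and 0 fell, where 8.66% of all probe sets changed (5.08% up and 3.58% down). At 18 months 4 rose and 2 fell, where 8.5% changed (3.37% up and 5.13% down). Between 14 and 18 months 1 rose and 3 fell, near the share of all probe sets, 13% (4.75% up and 8.23% down). The arrays of 14 and 6 months did not overlap for 18 of the 35 genes (19.9% of all probe sets), those of 18 and 6 months for 12 (20.2%) and those of 18 and 14 months for 12 (31.7%). The median change of the 35 genes was 0.46 at 14 months and 0.044 at 18 months. Only Lyz2 showed the order of 14 above 6 above 18 months without overlap in BM, where 1.02% of all probe sets did.

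Resident-type genes made up 5 of the 9 rises in BM at 14 months, and Vsig4 and Cd163 were among them. Vsig4 was at 4.10, 3.89 and 4.25 in BM at 6 months, under the background limit on each array, and at 6.93, 6.26 and 5.52 at 14 months and 7.05, 8.30 and 7.02 at 18 months. All older arrays were above all young arrays, at least 2.40-fold at 14 months and at least 5.57-fold at 18 months. The fitted differences had an adjusted p of 0.002 at 14 months and 0.000177 at 18 months. Cd163 read 5.21, 5.996 and 6.03 at 6 months, 7.96, 6.77 and 6.72 at 14 months and 7.24, 7.20 and 7.25 at 18 months. It too was higher on every older array, 2.64-fold at 14 months (adjusted p = 0.00283) and 2.79-fold at 18 months (adjusted p = 0.00302). Timd4 was at 5.07, 4.99 and 4.37 at 6 months, 6.76, 5.48 and 5.54 at 14 months and 5.59, 6.36 and 5.77 at 18 months, again without overlap between 6 months and either later age, and rose by 1.12 (SE 0.28, adjusted p = 0.0168) and 1.10 (SE 0.28, adjusted p = 0.0204), but at 6 months it was above the background limit on 1 of 3 arrays only, so the size of these rises is uncertain.

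C1qa and C1qc rose in BM at 14 months. C1qa read 8.19, 9.11 and 9.07 at 6 months, 10.14, 9.55 and 9.38 at 14 months and 8.88, 10.10 and 9.44 at 18 months, and C1qc 9.44, 9.74 and 9.77 at 6 months, 10.53, 10.25 and 10.08 at 14 months and 10.03, 10.54 and 9.81 at 18 months. The 14-month arrays of both lay above all 6-month arrays, with changes of 0.90 (SE 0.27, adjusted p = 0.0467) and 0.64 (SE 0.18, adjusted p = 0.0334). At 18 against 6 months they differed by 0.68 (adjusted p = 0.132) and 0.48 (adjusted p = 0.111), without a call, and all 18-month C1qc arrays lay above all 6-month arrays. C1qb, at 10.19, 9.06 and 9.19 at 6 months, 10.04, 9.84 and 9.43 at 14 months and 8.91, 10.03 and 9.18 at 18 months, overlapped and differed by 0.29 (adjusted p = 0.626). Csf1r, at 9.17, 10.17 and 9.48 at 6 months, 10.59, 10.25 and 10.35 at 14 months and 9.48, 9.86 and 9.62 at 18 months, rose to 14 months (0.79) and fell from 14 to 18 months (-0.74). Cd68 followed the same course (0.75 and -0.82), as did Fcgr4 (1.04 and -1.07), and Ctss rose by 1.18 to 14 months.

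Adgre1, Mrc1 and Lyve1 had no called change with age in BM. Adgre1 was at 8.96, 9.02 and 8.81 at 6 months, 10.03, 9.22 and 9.51 at 14 months and 8.95, 9.63 and 8.81 at 18 months there. Mrc1 was at 8.10, 8.43 and 8.25 at 6 months, 9.32, 8.60 and 8.52 at 14 months and 8.79, 9.66 and 8.50 at 18 months. All of its 14-month and 18-month arrays lay above those of 6 months, but neither difference was called (0.56, adjusted p = 0.185, and 0.72, adjusted p = 0.0723). Lyve1 was at 6.06, 6.11 and 5.82 at 6 months, 6.13, 5.88 and 6.19 at 14 months and 5.79, 5.92 and 6.28 at 18 months, overlapping at all ages, with an interval of -0.22 to 0.36 for the 14-month difference. At 18 against 6 months Cd86 rose by 0.75, whereas Fcgr3 (-0.90) and Stab1 (-0.70) fell. Marco was high on 1 array only, with BM values of 5.22, 5.38 and 5.24 at 6 months, 7.63, 5.36 and 4.72 at 14 months and 5.41, 5.77 and 5.41 at 18 months and no called change, though without BM 14-month replicate 3 it was called higher in BM than in epididymal cells at 14 months (1.09).

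These BM calls were mostly close to the limit. In place of the 9 calls at 14 months (8.66% of all probe sets) 2 were made without BM 14-month replicate 1 (7.04%), where Timd4 1.12 became 0.70. There were 4 without BM 6-month replicate 1 (7.59%) and 5 without BM 14-month replicate 3 (4.4%). In place of the 6 at 18 months (8.5%) 2 were made without BM 18-month replicate 2 (4.52%). Between 14 and 18 months 2 in place of 4 (13%) were made without BM 14-month replicate 2 (9.67%), BM 14-month replicate 3 (8.63%) or BM 18-month replicate 3 (10%). Vsig4 and Cd163 passed at both ages under each array left out.

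The 2 depots were compared at each age, on the same arrays that gave the changes with age, and series of differences are given in the order of 6, 14 and 18 months. At 6 months 21 of the 35 genes were higher and 5 lower in BM, where 46.3% of all probe sets differed (22% higher and 24.3% lower). At 14 months 12 were higher and 12 lower, where 45.8% differed (21.6% and 24.2%), and at 18 months 29 were higher and 1 lower, where 47.1% differed (21.6% and 25.5%). Over the 3 ages 23 were higher and 6 lower, where 58.1% differed (26.9% and 31.2%). The arrays of the depots did not overlap for 28 genes at 6 months (48.2% of all probe sets), 23 at 14 months (57%), 33 at 18 months (58.3%) and 10 over the ages (27.6%). The median differences were 1.06, -0.27 and 2.42 at the 3 ages. With all 60 ribosomal protein genes set to an equal mean instead, which shifted all BM against epididymal differences by -0.84, -0.54 and -0.64 at 6, 14 and 18 months, the counts were 15 higher and 12 lower, 9 and 19, and 26 and 4. Over all probe sets 88.9%, 78.1% and 84.9% were then called at these ages.

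Inflammatory-type genes were higher in BM at every age, all 8 of 8, as were 15.1% of all probe sets. Cd14 in BM was at 10.14, 9.08 and 9.99 at 6 months, 9.75, 9.62 and 10.08 at 14 months and 8.94, 9.34 and 9.23 at 18 months, and every BM array was above every epididymal array. The difference was 2.25 (SE 0.22, adjusted p = 5.3e-08) at 6 months, 3.60 at 14 months and 4.31 (SE 0.22, adjusted p = 4.64e-12) at 18 months, when epididymal Cd14 was above the background limit on 2 of 3 arrays and averaged 4.87. Cd86 in BM was at 7.38, 6.94 and 7.41 at 6 months, 7.82, 7.48 and 8.01 at 14 months and 7.94, 8.31 and 7.72 at 18 months, and also lay above all epididymal arrays. It was higher by 1.56 at 6 months, 1.83 at 14 months and at least 8.17-fold at 18 months. Itgax was at 6.86, 8.01 and 7.005 at 6 months, 7.72, 7.78 and 7.77 at 14 months and 6.79, 7.45 and 6.87 at 18 months in BM and higher by 1.58, 0.86 and 1.62, with arrays of both depots overlapping at 14 months.

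Lyz2 was at 13.21, 12.95 and 13.14 at 6 months, 13.27, 13.24 and 13.27 at 14 months and 12.93, 12.95 and 12.82 at 18 months in BM. The gap to epididymal cells was 10.0-fold at 6 months, 2.07-fold at 14 months and 25.8-fold at 18 months, so it was narrowest when the epididymal signal peaked. Neutrophils, monocytes and dendritic cells share several of these genes. All 14 neutrophil markers were also higher in BM over the ages (median 5.77), as were 26.9% of all probe sets, and the part of neutrophils in these differences was not tested. Fcgr4 differed by 3.88, 4.34 and at least 14.0-fold, with 1 of 3 epididymal arrays above the background limit at 6 months and 2 of 3 at 14 months, Clec4n by at least 3.91-fold at 6 months and 6.37-fold at 18 months, and Fcgr3 by 3.79, 1.71 and 3.64. Fcgr1, which encodes the high-affinity receptor CD64 of macrophages, differed by 1.22, 0.60 and 1.51.

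At 14 months most resident-type genes were lower in BM, and at 18 months most were higher, but these were partly different genes. Only 6 of the 14 were called in both directions (0.504% of all probe sets). At 14 months 0 of the 14 were higher and 10 lower in BM (21.6% and 24.2% of all probe sets), and at 18 months 10 were higher and 1 lower (21.6% and 25.5%). At 6 months 3 were higher and 5 lower, near the shares of all probe sets (22% and 24.3%). Their median difference was -0.39, -1.44 and 1.42. Mrc1 is an example, with BM against epididymal differences of 0.31 (SE 0.24, adjusted p = 0.338) at 6 months, -1.28 (SE 0.24, adjusted p = 0.000209) at 14 months and 2.82 (SE 0.24, adjusted p = 8.19e-09) at 18 months. C1qa went from 0.69 through -0.90 to 2.99, although its 6-month call was -0.14 with the ribosomal genes set equal. C1qc ran from 1.51 through -0.55 to 3.18. In all, 7 genes were called lower in BM at 14 months and higher at 18 months, namely C1qa, C1qc, Mrc1, Cd163, Clec10a, Mgl2 and Trem2, a pattern of 0.504% of all probe sets. Of these, Trem2 at 18 months (0.55) became -0.085 with the ribosomal genes set equal, and Clec10a (0.70) no longer passed without BM 18-month replicate 2.

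Lyve1, Folr2 and Stab1 were lower in BM at 6 and 14 months and not called at 18 months. For Lyve1 the differences were -1.51, -3.83 (SE 0.13, adjusted p = 2.4e-14) and 0.067 (adjusted p = 0.753), the second being 14.2-fold. Folr2 was 16.8-fold lower and Stab1 9.31-fold lower in BM at 14 months. Mertk alone was called lower in BM at each age, as were 16.8% of all probe sets. Its BM arrays were 7.36, 7.09 and 7.23 at 6 months, 7.52, 6.85 and 7.01 at 14 months and 7.28, 8.13 and 7.39 at 18 months, all under every epididymal array, with differences of -1.73 (SE 0.19, adjusted p = 2.38e-07), -1.59 and -0.74.

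The pan-macrophage genes were higher in BM at 6 and 18 months but not distinguishable at 14 months. Adgre1 differed by 1.77 (SE 0.22, adjusted p = 1.15e-06) at 6 months and 3.40 at 18 months, and at 14 months by 0.25 with a 95% interval of -0.22 to 0.73 (adjusted p = 0.386). Csf1r differed by 1.34 and 3.16, and at 14 months by -0.075 with an interval of -0.50 to 0.35 (adjusted p = 0.8). Both lipid-associated genes were lower in BM at 14 months. Gpnmb in BM was at 7.97, 7.90 and 7.94 at 6 months, 7.79, 7.62 and 7.89 at 14 months and 7.50, 8.29 and 7.12 at 18 months, and its 14-month difference was -1.92 (SE 0.34, adjusted p = 8.79e-05), with no overlap between depots. Trem2 in BM was at 7.18, 6.75 and 6.54 at 6 months, 6.62, 6.52 and 6.53 at 14 months and 6.62, 7.16 and 6.67 at 18 months, and differed by -0.74 (SE 0.20, adjusted p = 0.00401).

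The adaptors and intracellular markers stayed higher in BM at each age. Tyrobp differed by 4.50, 2.26 and 4.61, Fcer1g by 3.98, 1.97 and 4.36, and Mpeg1 by 3.29, 1.97 and 4.66. With Aif1, the calcium-binding protein IBA1, and the 8 inflammatory-type genes, 12 of the 35 genes were called higher in BM at all 3 ages, as were 15.1% of all probe sets.

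C1qa, Msr1, Ms4a7, Aif1, Ctss, Stab1 and Fcgr1 at 6 months, and C1qa, C1qc, Aif1, Fcgr1 and Itgax at 14 months, and Siglec1, Clec10a and Trem2 at 18 months, lost the call under at least 1 left-out array or alternative processing other than the fold limit of 2. Calls under 2-fold fail that limit as well, among them Trem2 at 14 months (-0.74) and Mertk at 18 months (-0.74).

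**Figure D3:**
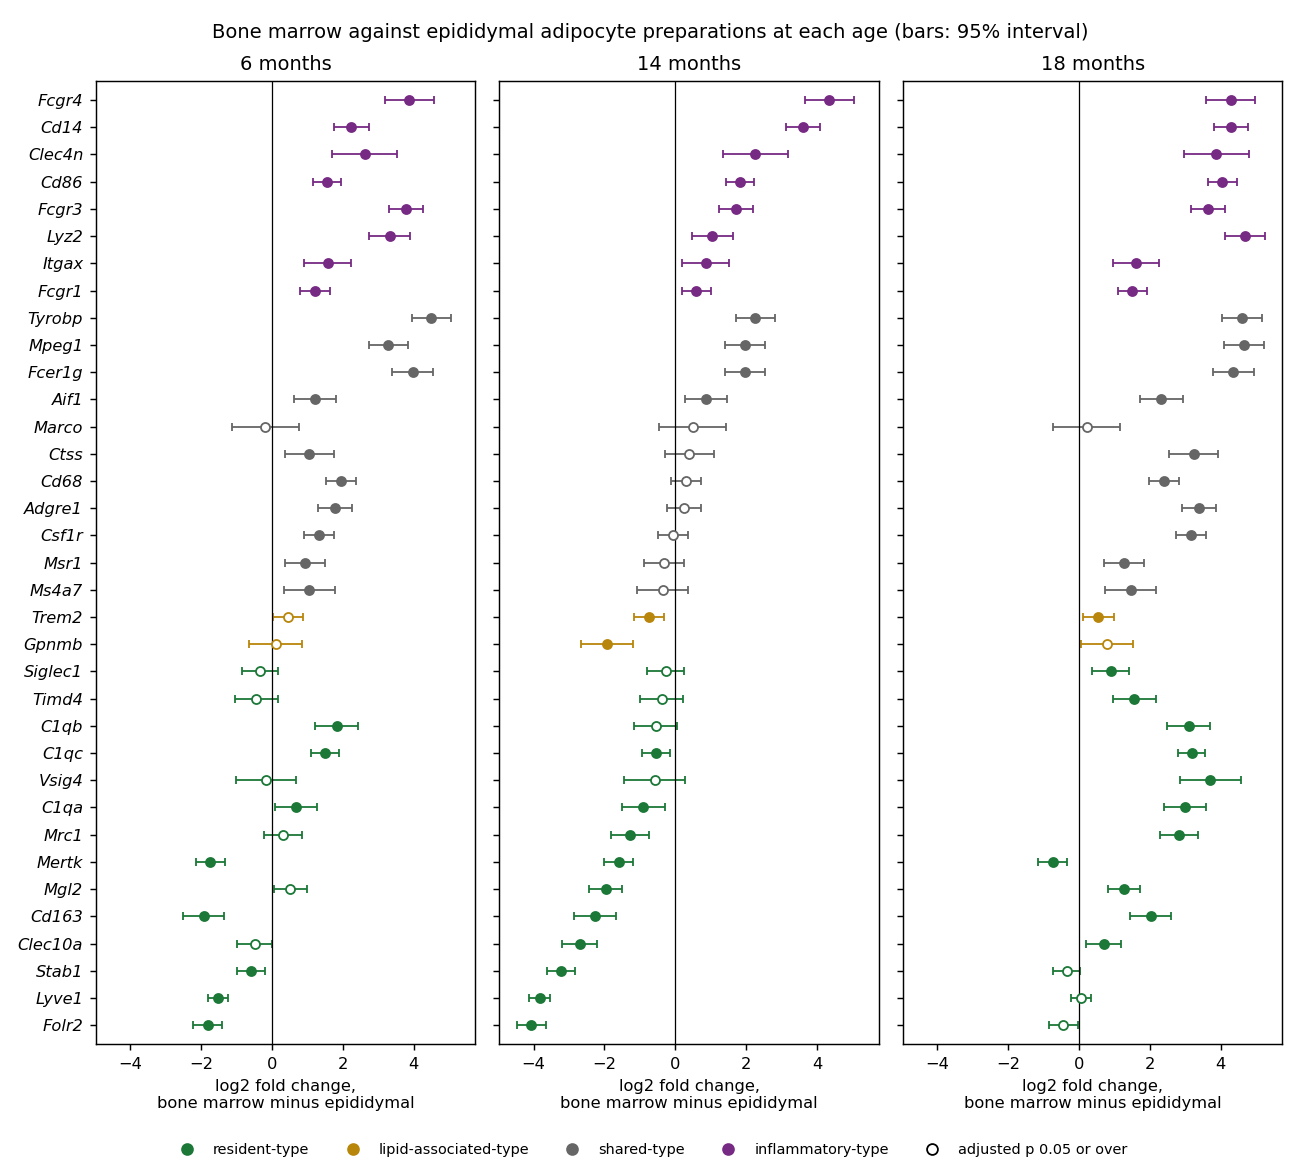
Log2 fold change of BM against epididymal preparations (x axis, 0 means equal) for the 35 genes (rows) at 6, 14 and 18 months, with 95% intervals, coloured by resident, lipid-associated, shared and inflammatory type and drawn open where the adjusted p was 0.05 or more. Differences against a group under the background limit are drawn as fitted, not as bounds. Inflammatory-type genes lie to the right at every age, and resident-type genes lie mostly to the left at 14 months and mostly to the right at 18 months.

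The change with age differed between the depots for most genes. In the interaction test of cell type and age 31 of the 35 passed, against 20.4% of all probe sets, and Marco (adjusted p = 0.723), Clec4n (0.119), Fcgr4 (0.727) and Itgax (0.34) did not. The BM change minus the epididymal change was -2.32 at 14 months and 1.58 at 18 months for Lyve1 (adjusted p = 6.89e-10). For Cd163 it was -0.33 and 3.95 (adjusted p = 2.87e-07) and for C1qc -2.06 and 1.67 (adjusted p = 4.21e-08). For Cd14, which fell in epididymal cells at both ages, the values were 1.35 and 2.06.

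Other genes of the macrophage and monocyte pathways were counted from lists of known function. Of 11 monocyte genes, 7 rose and 1 fell in epididymal cells at 14 months, with a median of 1.81, where 10.2% of all probe sets rose and 7.51% fell. The rises included the adhesive matrix protein gene Fn1 (2.82), the transglutaminase F13a1 (2.65) and the chemokine receptor gene Ccr2 (2.44). At 18 against 6 months 5 of the 11 fell (8.01% of all probe sets), and in BM 2 rose at 14 months (5.08%). Itgam, which encodes CD11b, rose from 6.82 to 8.67 in epididymal cells at 14 months and averaged 10.91 ± 0.39 (SD, n = 3) in BM at 6 months. All 11 monocyte genes were higher in BM over the ages, with a median of 2.70, where 26.9% of all probe sets were higher and 31.2% lower.

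Genes of alternative activation rose with the resident-type genes in epididymal cells, 9 of 15 up and 3 down at 14 months (median 1.43), where 10.2% of all probe sets rose and 7.51% fell. Cd209f (3.62) and Cd209d (2.63), lectins related to DC-SIGN, and the chemokine Ccl8 (3.03) were among them, and from 14 to 18 months 10 of the 15 fell (12.5% of all probe sets), including the resistin-like Retnla (-4.99). Most genes of classical activation fell at 14 months, 1 up and 9 down of 15 (median -1.24), among them the cytokine Il6 (-4.36) and the chemokines Cxcl10 (-5.08), Ccl3 (-3.97) and Ccl2 (-2.91). Adipocytes and stromal cells also make several of these cytokines. In BM 4 of the classical genes rose and 1 fell at 14 months (5.08% and 3.58% of all probe sets), and 1 rose and 4 fell at 18 months (3.37% and 5.13%).

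Among growth and transcription factors of the lineage, 5 of 17 rose and 2 fell in epididymal cells at 14 months, where 10.2% of all probe sets rose and 7.51% fell. Spi1, whose product PU.1 was searched for in the promoters above, was 3.63 higher in BM over the ages and -1.44 at 18 against 6 months in BM (adjusted p = 0.00894). Spic, the factor of iron-recycling red-pulp and marrow macrophages, rose by 0.95 in BM at 14 months, and Csf1, the ligand of CSF1R, was -2.001 at 18 against 14 months there (adjusted p = 1.55e-05). Efferocytosis genes outside the main list rose in 3 of 13 cases in epididymal cells at 14 months (10.2% of all probe sets), including the TAM receptor gene Axl (2.20). Of 18 lysosome and lipid handling genes 2 rose and 1 fell, with a median of 0.077, near the 10.2% of all probe sets that rose and 7.51% that fell. Of 6 complement genes other than C1q 2 rose and 1 fell in epididymal cells at 14 months (10.2% and 7.51% of all probe sets). The anaphylatoxin receptor gene C3ar1 rose by 1.79 there.

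Markers of other cells moved with the epididymal change. At 14 against 6 months 9 of 10 fibroblast and progenitor genes (median 1.72), 8 of 12 endothelial genes (0.76), 7 of 8 mesothelial genes (0.95) and 7 of 12 dendritic cell genes (0.81) rose and none of them fell, while 2 of 10 adipocyte markers fell, against 10.2% of all probe sets that rose and 7.51% that fell. The mean signal of the fibroblast list ranged over 8.88 to 9.07 on the 6-month, 10.46 to 10.78 on the 14-month and 8.85 to 8.92 on the 18-month arrays. For the endothelial list the ranges were 7.67 to 7.78, 8.37 to 8.61 and 6.82 to 6.94, and for the resident-type genes 7.10 to 7.18, 8.96 to 9.26 and 5.92 to 5.96. These lists peaked at 14 months as the macrophage genes did, and the part of a changed share of stromal and vascular cells in the macrophage result was not tested.

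Neutrophil genes did not follow. Of 14, 0 rose and 4 fell in epididymal cells at 14 months (10.2% and 7.51% of all probe sets), and their list mean was 8.81 on epididymal 6-month replicate 1 against 5.86 and 5.63 on the other 6-month arrays. That replicate also had the highest 6-month signal of Lyz2, Tyrobp, Fcer1g and Fcgr3. In BM at 14 months 8 of 11 B-lineage genes (median 0.99), 5 of 11 T and NK cell genes and 5 of 12 dendritic cell genes rose and 9 of 12 endothelial genes fell (-0.91), where 5.08% of all probe sets rose and 3.58% fell, and their part in the BM macrophage values was not tested.

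Single arrays tended to carry the whole list up or down. BM 14-month replicate 1 was the highest of its group for 27 of the 35 genes and for 41.4% of all probe sets. BM 18-month replicate 2 was highest for 29 genes (29.3%) and epididymal 14-month replicate 1 for 29 (33.2%). The median SD of the 35 genes was 0.35, 0.23 and 0.36 in BM at 6, 14 and 18 months and 0.15, 0.35 and 0.13 in epididymal cells.

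**Figure D4:**
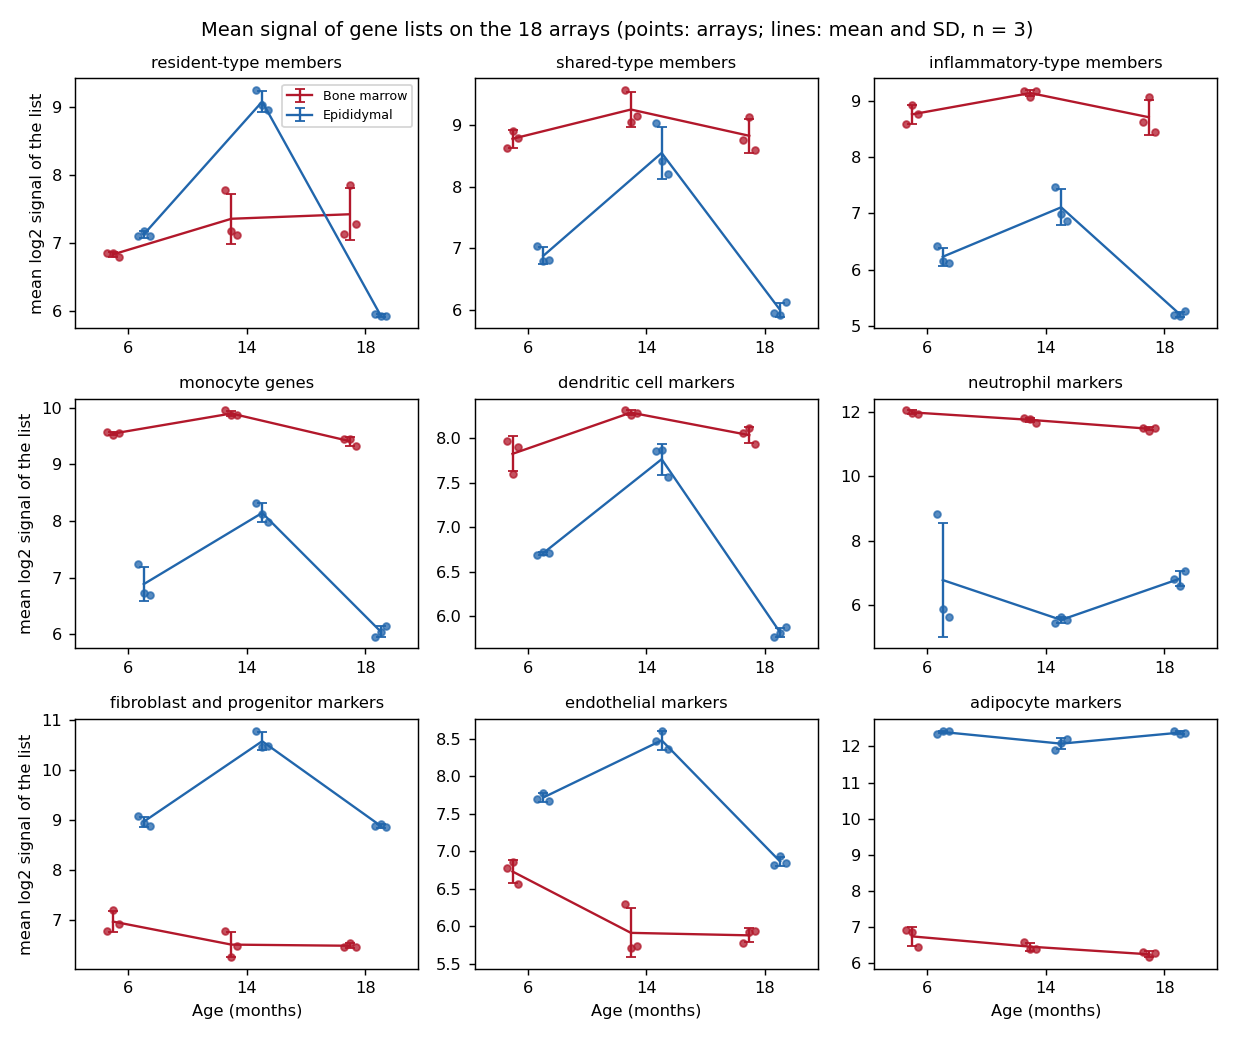
Mean log2 signal of 9 gene lists on each of the 18 arrays by age in months (evenly spaced, not to scale), BM in red and epididymal in blue, points being arrays and lines joining group means with SD (n = 3). Epididymal resident-type genes lie at 7.10 to 7.18, 8.96 to 9.26 and 5.92 to 5.96 at the 3 ages, and fibroblast and endothelial lists peak at the same age.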

How the data were processed

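Bone marrow and epididymal adipocyte RNA from 6 groups of mice was measured on 18 arrays, 3 per group. The authors' methods name GCRMA in Partek followed by quantile normalization, whereas the legend of a supplementary figure names RMA. The deposited log2 values ran from 1.9011 to 14.641 with array medians of 5.33 to 5.65. Array signals carry no read depth, so precision is limited by the number of arrays.

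The deposited table has 35556 probe sets. Tests were run on the 23410 with a gene name, and for each gene the probe set with the highest mean that names it alone was used (1621 probe sets name several genes). Platform annotation gave the names. Group means over all 18 arrays were fitted with limma 3.58.1 in R 4.3.3, with moderated tests, 9 contrasts within cell types or within ages, 1 over the ages and an interaction F test, as in the authors' two-factor design. P-values were adjusted by the Benjamini-Hochberg method over all 23410 probe sets. ± is the SD of 3 arrays and SE that of the fit. Intervals are 95%.

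Where all arrays of a group were under the background limit of the 1035 olfactory receptor probe sets, the fold was taken against the higher of that limit and the measured value on each array and is written as at least. An adjusted p given with such a fold is that of the fitted difference, and the bound itself was not tested. Genes named with full values were the members in order of their roles, with the others summarised. The members and all gene lists were chosen with earlier results of these data known, so no count over them is given a p-value. The scripts were tested on simulated data.

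Alternatives were 3 rescalings, other probe set choices, a filter that left out 6567 dim probe sets, a fold limit of 2, only the compared groups in the fit, ordinary tests of the linear model, other variance priors, array weights, a replicate block and leaving out each array. Replicate numbers recur in every group, but bone marrow and epididymal deviations of the same number correlated above 0.1 in 1 of 9 pairs, so the numbers were not taken to pair the arrays. Promoters were read from RefSeq (GRCm38.p6) with Python 3.11.15, and figures were drawn with matplotlib 3.10.9.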

Additional observations from a re-analysis of the deposited data

Results flagged for a closer look

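The change with age differed between bone marrow and epididymal preparations for 31 of the 35 macrophage and monocyte genes in the interaction test, and the larger of their differences is given here as the bone marrow minus the epididymal log2 change. At 14 against 6 months it was negative for 17 genes, with C1qb at -2.38, C1qc at -2.06, Stab1 at -2.62, Lyve1 at -2.32, Folr2 at -2.26, Msr1 at -1.26, Clec10a at -2.22, Mgl2 at -2.48, Ms4a7 at -1.41, Lyz2 at -2.28, Cd68 at -1.66, Gpnmb at -2.03, Trem2 at -1.20, Tyrobp at -2.24, Fcer1g at -2.01, Fcgr1 at -0.62 and Fcgr3 at -2.08. At 18 against 6 months it was positive for the others, with C1qa at 2.29, Mrc1 at 2.51, Cd163 at 3.95, Mertk at 0.99, Timd4 at 2.01, Vsig4 at 3.88, Siglec1 at 1.24, Csf1r at 1.82, Adgre1 at 1.63, Aif1 at 1.11, Mpeg1 at 1.38, Ctss at 2.19, Cd14 at 2.06 and Cd86 at 2.49. Groups of 3 arrays are too small for a test of single outlying arrays. Vsig4 was under the background limit on all arrays of bone marrow 6 months and of epididymal 6 and 18 months, Ms4a7 and Aif1 on those of epididymal 6 and 18 months, and Timd4 and Cd86 on those of epididymal 18 months, so the sizes given for these 5 genes are fitted values and not measured folds.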

How the results depend on the processing

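The count of called genes stayed within 1.5 times its value under every alternative for the depot comparisons, for epididymal 14 against 6 and 18 against 14 months and for the interaction. For bone marrow 14 against 6 months (9 genes and 8.66% of all probe sets) it was 5 (1.37%) with a fold of at least 2 and 3 (6.6%) with ordinary tests. Array weights gave 2 (4.72%) and the compared groups alone 1 (1.16%). For bone marrow 18 against 6 months (6 genes and 8.5%) the fold gave 3 (1.03%), ordinary tests 2 (5.81%) and the groups alone 1 (0.0769%). For bone marrow 18 against 14 months (4 genes and 13%) the fold gave 2 (1.96%) and ordinary tests 2 (11.4%). Array weights gave 9 there (19.1%) and the groups alone 11 (16.4%). For epididymal 18 against 6 months (23 genes and 16.2%) the fold limit left 14 (2.4%). Leaving out single arrays gave 2 to 10 (4.4% to 13% of all probe sets), 2 to 8 (4.52% to 16.5%), 2 to 6 (8.63% to 17.4%) and 17 to 24 (9.09% to 21.6%) for these 4 comparisons. Over the ages it gave 29 to 30 (56.4% to 60.4% of all probe sets). At 6, 14 and 18 months it gave 25 to 28 (43.2% to 48.7%), 21 to 26 (41.6% to 49.3%) and 29 to 31 (43.5% to 50.1%). The remaining epididymal comparisons gave 25 to 30 (12.6% to 22.2%) and 32 to 33 (18% to 29%). The interaction gave 28 to 32 (20.4% of all probe sets with all arrays in the fit). The cause of these moves was not tested.

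With ribosomal protein genes set equal, some bone marrow against epididymal differences reversed: over the ages Mrc1 (-0.054), Msr1 (-0.036), Timd4 (-0.42), Siglec1 (-0.57) and Trem2 (-0.58), at 6 months C1qa (-0.14), Mrc1 (-0.53) and Gpnmb (-0.73), and at 18 months Lyve1 (-0.57) and Trem2 (-0.085). Centring arrays on their median shifted all epididymal changes by 0.18 for 18 against 6 and by 0.26 for 18 against 14 months. A replicate block gave 29 genes over the ages (56.9% of all probe sets). At 6, 14 and 18 months it gave 28, 24 and 30 (45%, 44.4% and 46%). For the interaction it gave 31 (20.4% of all probe sets without the block). Same-numbered arrays correlated by -0.136 to 0.153. Where only some arrays of a group passed the background limit, the fitted difference is less certain.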
